A study of Mus musculus with 14 samples.

Results

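OC3 and AC3 were an osteo-chondrogenic and an adipo-chondrogenic pool of clonal stromal cell lines from mouse bone marrow. They were read against the 4 other pools of the same experiment, O3 (osteogenic), A3 (adipogenic), OA3 (osteogenic and adipogenic) and OAC3 (all 3 lineages). These 6 libraries, all those labelled as pools, were taken out of 14. The other 8 libraries were single clones, numbered 1 or 2, and are used here for the spread within a potency, meaning the set of lineages a clone could form. OC3 was compared with O3 and AC3 with A3, so that each pair differed in its labels by the cartilage potency, and OAC3 with OA3 served as the third such pair. The 3 pairs share no library.

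The cells had been flushed out of tibiae and femora of adult C57Bl/6 animals carrying the irtTA-GBD*-TAg transgene, from which dexamethasone and doxycycline together switch on large T antigen, a viral protein that keeps cells dividing. Every pool, the unipotent ones included, carried this transgene and had been expanded under both agents. RNA was taken after 3 days without them, from cells that had not been put through differentiation. Potency had been scored separately on each clone in small wells without the agents. Each pool mixed several clones from the same 2 mice, and clones 1 and 2 came from different mice. How many clones went into a pool is not given in the sources used here. OC3 and AC3 were therefore 1 library each, and no potency was replicated as a pool.

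Stromal cells of the marrow include progenitors of bone, fat and cartilage. Sox9, with Sox5 and Sox6, switches on the cartilage matrix genes, among them Col2a1 (type II collagen) and Acan (aggrecan). Runx2 and Sp7 drive the bone program, and Pparg and Cebpa the fat program. In the Hedgehog pathway a ligand such as Ihh binds Ptch1, which releases Smo and leads to the Gli transcription factors, and Hhip is a membrane protein that binds and sequesters the ligand. Marrow stromal cells also support blood stem cells through Cxcl12, Kitl, Angpt1 and the adhesion molecule Vcam1.

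Levels are given as CPM, a gene's reads per 1000000 reads counted, adjusted between libraries by the TMM method. The pools held 21511182 to 26076539 counts. The upper limit that a count of 0 allows, 3 counts, was 0.112 to 0.134 CPM. A difference between 2 pools is a ratio of CPM with an exact 95% counting interval. A gene is called past 4-fold where the nearer end of that interval lies beyond 4-fold. A pool without a read of a gene was set to 3 counts, which gives a ratio of "at least" that size. These intervals cover counting error only and carry no information on how much 2 pools of the same potency would differ. No p-value is given for any difference. In bulk RNA, fewer cells of a type and less RNA per cell cannot be told apart, nor can 1 clone of a pool with a high level and many clones with a moderate one.

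The 11529 genes that reached 5 CPM in any of the pools were compared. OC3 and O3 differed past 4-fold at 134 (1.16%), AC3 and A3 at 261 (2.26%), and OAC3 and OA3 at 67 (0.581%). Pools set beside a single clone of the same potency differed about as often, or more often. No pool could be set beside another pool of its own potency. The pool O3 differed from clone O2 at 2.54% of genes and from clone O1 at 11.6%, and A3 differed from A1 at 1.67% and from A2 at 2.02%. The pool was the higher library at most of these genes. O3 was higher at 238 and lower at 55 genes beside O2, and at 1238 and 98 beside O1. A3 was higher at 145 and lower at 48 beside A1, and at 177 and 56 beside A2. A pool above clones is thus a weaker standard than a pool below them. Many differences below are therefore set beside the range of O1, O2 and O3 or of A1, A2 and A3. That range is a narrow standard, since 23.9% of all genes were above it and 22.5% below it in OC3. In AC3, 34.1% were above it and 30.8% below. For a gene already called against O3 or A3, only the single clones of that range add to the call. Other differences are given against pools only. Base composition moved with all 3 pairs: Spearman's rank correlation between a gene's log2 ratio and its GC content, across genes, was -0.40 for OC3 over O3, -0.46 for AC3 over A3 and -0.34 for OAC3 over OA3. For O3 over clone O1 it was -0.60. With the trend of each pair subtracted, 69 of the 73 genes called higher and 57 of the 61 called lower in OC3 kept the call. In AC3, 101 of 123 and 116 of 138 kept it. Lost calls, and values that moved by over 1.5 times, are given beside the genes concerned.

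Markers of other cell types were low in all 6 pools. Summed over each list, blood cell markers reached 10.7 to 21.96 CPM, endothelial markers 4.24 to 31.7, Schwann and neural markers 11.8 to 97.3, skeletal muscle markers 20.9 to 37.4 and epithelial markers 27.7 to 115. Ptprc, the pan-leukocyte surface phosphatase, had at most 1 read in any pool. Single members of these lists did differ. Krt14, an epithelial keratin, was higher in OC3 than in O3 past 4-fold (log2 2.76), and OC3 was the highest library for it. The others are named where they occur.

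**Figure D1:**
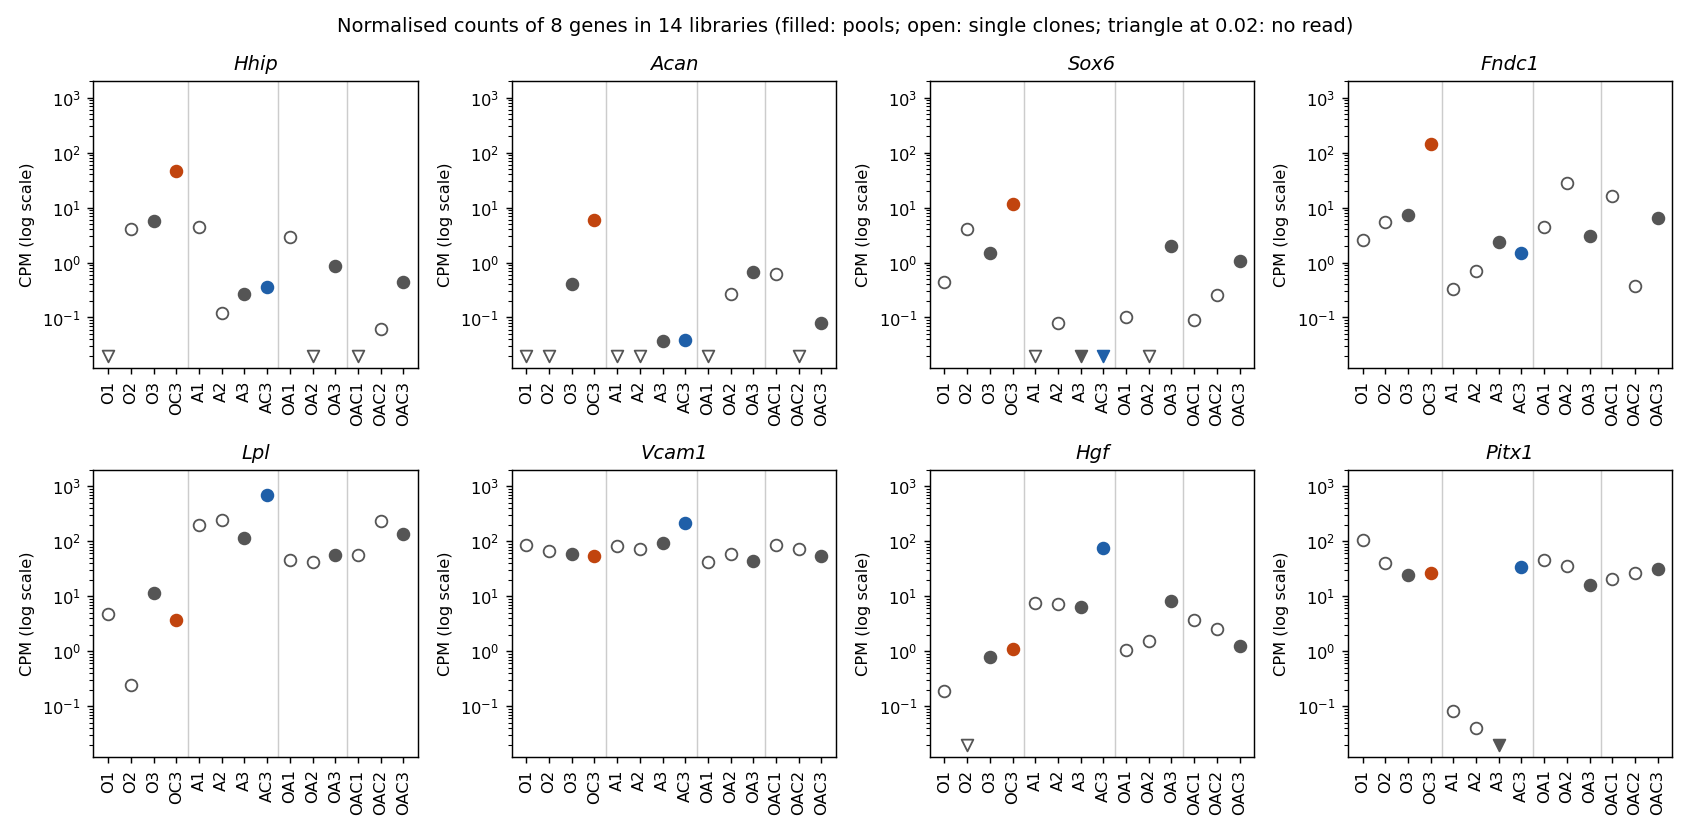
CPM (log axis) of 8 genes in all 14 libraries, with filled points for the 6 pools, open points for single clones, orange for OC3, blue for AC3 and triangles for libraries without a read. Hhip, Acan, Sox6 and Fndc1 are highest in OC3, Lpl, Vcam1 and Hgf are highest in AC3, and Pitx1 is near 0 only in the A libraries.

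In OC3 a small group of cartilage, mineralisation and Hedgehog genes stood several-fold to many-fold above O3, while antiviral genes stood far below. Acan and Hhip were at their highest of all 14 libraries in OC3. In all, 73 genes were higher in OC3 than in O3 past 4-fold (0.633% of those compared) and 61 were lower (0.529%). Of the 73, 59 were above the range of the 3 O libraries. Of the 61 lower genes, 23 were below it, or 49 without clone O2.

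Acan encodes aggrecan, the large proteoglycan that gives cartilage its resistance to compression. It was at 5.98 CPM in OC3, 0.672 in OA3, 0.412 in O3, 0.0789 in OAC3, 0.0396 in AC3 and 0.0381 in A3. OC3 was the only library of the 14 above 1 CPM, and the OC3 to O3 ratio was 14.5 (95% counting interval 7.90 to 29.7) from 158 and 11 reads. The other 2 pools with cartilage potency, OAC3 and AC3, were at or below O3.

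Sox6, the cofactor of Sox9, was at 11.5 CPM in OC3, 1.97 in OA3, 1.499 in O3 and 1.06 in OAC3, and had no read in A3 or AC3. The ratio of OC3 to O3 was 7.68 (interval 5.51 to 11.0), and clone O2, at 4.09, came closest to OC3. Sox9 itself did not differ past 4-fold. It was at 25.4 CPM in OC3, 24.4 in AC3, 23.8 in OA3, 19.7 in OAC3, 13.6 in O3 and 13 in A3, which puts both OC3 and AC3 above their unipotent pool by log2 0.90 and 0.91. Clone O2 was at 27.3 CPM, so OC3 lay inside the O range for Sox9.

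Col2a1 went the other way. It was at 298 CPM in O3, 192 in A3, 159.6 in OC3, 85.3 in OA3, 60.96 in AC3 and 18.2 in OAC3, which puts OC3 at log2 -0.90 against O3. All 3 pools with cartilage potency were below their partner, and only the difference of OAC3 from OA3 (log2 -2.23) was past 4-fold, a call lost with the GC trend subtracted. Of the 28 listed cartilage genes in the count table, 16 were compared. Acan, Sox6 and Pth1r were higher in OC3 past 4-fold (0.633% of all genes) and none was lower, and the median of the list was log2 0.41 against -0.01 for all genes. In OAC3 over OA3 the list went the other way, with a median of log2 -0.49 and 13 of the 16 lower. Pth1r, the receptor for parathyroid hormone and its related peptide, was at 165 CPM in OC3 and 32.8 in O3 (ratio 5.04, interval 4.69 to 5.43), but clone O2 was at 270.2 CPM.

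Genes of the mineralising osteoblast made up the largest listed group above O3. Of 26 osteoblast genes compared, 23 were higher in OC3 than in O3, 6 of them past 4-fold (0.633% of all genes), and the list median was log2 1.02. Slc13a5, a citrate transporter, was at 245 CPM in OC3, 203 in OA3, 24.0 in OAC3, 9.63 in O3 and 0.114 in A3, with no read in AC3. The ratio of OC3 to O3 was 25.5 (interval 22.5 to 29.0). OC3 and OA3 were high and the other osteogenic pools, O3 and OAC3, were low.

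The same order held for Ibsp, the bone sialoprotein gene, at 1518 CPM in OA3, 1339 in OC3, 209 in O3 and 207 in OAC3, with 0.229 in A3 and 0.159 in AC3. Phospho1, a phosphatase of matrix vesicles, was at 268 CPM in OC3, 209 in OA3, 46.3 in OAC3, 25.1 in O3, 13.7 in A3 and 5.83 in AC3. Panx3, a channel protein of osteoblasts and prehypertrophic chondrocytes, was at 131 CPM in OC3, 97.7 in OA3, 25.3 in OAC3 and 10.4 in O3, with under 1 CPM in A3 and AC3. OC3 over O3 came to 6.41 for Ibsp, 10.7 for Phospho1 and 12.6 for Panx3. The other 2 past 4-fold were Ifitm5 and Dlx3, a membrane protein and a homeobox factor of osteoblasts, at ratios of 10.8 (interval 6.93 to 17.5) and 7.91 (interval 5.55 to 11.6).

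These genes did not set OC3 apart from single clones. Clone O2 was at 816 CPM of Ibsp, 297 of Slc13a5, 251 of Phospho1 and 89.5 of Panx3, while O1 was at 1.84 CPM of Ibsp, so the O libraries alone spanned most of the difference. The early and general osteoblast genes differed less. Runx2 was at 191 CPM in OC3 and 93.8 in O3, Sp7 at 191 and 54.3, and Alpl, the alkaline phosphatase gene, at 1428 and 501, none of them past 4-fold. Col1a1, the chain of type I collagen, differed by log2 0.47. Of the 26 genes, 8 lay above the O range in OC3 (23.9% of all genes).

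Hhip showed the clearest excess among the Hedgehog genes. It was at 46.4 CPM in OC3, 5.73 in O3, 0.851 in OA3, 0.434 in OAC3, 0.357 in AC3 and 0.267 in A3. The ratio of OC3 to O3 was 8.10 (interval 6.84 to 9.64) from 1226 and 153 reads. Clones O1, without a read, and O2, at 4.05 CPM, were both below OC3. No other library of the 14 came near the OC3 level.

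Ihh, the ligand made by prehypertrophic chondrocytes, was at 8.29 CPM in OC3, 4.26 in OA3, 1.12 in O3 and 0.671 in OAC3, and at under 0.1 in A3 and AC3. OC3 exceeded O3 by 7.38-fold (interval 5.02 to 11.2), with O2 at 4.66 CPM. Gli1 and Ptch1, whose transcription Hedgehog signalling raises, were higher in OC3 than in O3 without passing 4-fold, Gli1 at 14.3 against 4.53 CPM and Ptch1 at 181 against 88.7. Both were as high or nearly as high in OA3, at 15.4 and 124 CPM. Of 13 Hedgehog genes compared, 11 were higher in OC3 than in O3, 8 were above the O range (23.9% of all genes), and 2 (Hhip and Ihh) were past 4-fold (0.633%), with a median of log2 0.65.

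Of 30 genes of the BMP and TGF-beta pathways, 3 were higher in OC3 than in O3 past 4-fold (0.633% of all genes) and the list median was log2 0.04. Bmp2, a ligand that induces bone and cartilage, was at 7.54 CPM in OC3 and at 0.487 in O3, 0.537 in OA3, 0.789 in OAC3, 0.912 in AC3 and 2.33 in A3. OC3 was the highest pool, at 15.5 times O3 (interval 8.84 to 29.6), while clone OA1 was at 8.21 CPM. Bmp3, a ligand that antagonises BMP signalling, was at 11.0 CPM in OC3, 3.40 in OA3 and 1.61 in O3. Chrdl1, a secreted BMP antagonist, was at 10.7 CPM in OC3 and 1.27 in O3, and O2 was at 11.6 CPM. Among 29 Wnt genes, 2 were past 4-fold higher in OC3 (0.633% of all genes). They were Rspo3, a secreted enhancer of Wnt signalling (9.66 against 0.375 CPM), and Tcf7, a nuclear effector (93.6 against 20.01 CPM, ratio 4.68). Clone O2 was at 141 CPM of Tcf7.

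Larger ratios were found outside these lists. Adamts18, a secreted metalloprotease, was at 40.0 CPM in OC3, 17.8 in OA3, 1.23 in AC3, 0.552 in OAC3, 0.0762 in A3 and 0.0749 in O3. OC3 had 1057 reads against 2 in O3, or 534-fold more per counted read (interval 148 to 4416). OA3 was again the next pool. Ptprz1, a receptor phosphatase that is also a chondroitin sulfate proteoglycan, was at 21.4 CPM in OC3, 6.14 in AC3, 3.70 in A3, 3.05 in OA3, 0.187 in O3 and 0.0394 in OAC3. Its ratio to O3 was 114 (interval 48.6 to 352).

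Cspg4, the NG2 proteoglycan of pericytes and other progenitors, was at 41.2 CPM in OC3, 4.77 in OAC3, 3.67 in OA3, 0.515 in AC3, 0.450 in O3 and 0.267 in A3. OC3 stood 91.5-fold above O3 (interval 52.2 to 178) and above every one of the other 13 libraries, of which clone OAC1 at 20.4 CPM was the highest. Cthrc1, a secreted collagen triple helix repeat protein, was at 13.9 CPM in OC3, at 0.717 or less in the 4 other pools with reads, and without a read in AC3. Fndc1, a fibronectin domain protein, was at 146 CPM in OC3, 7.31 in O3, 6.55 in OAC3, 3.00 in OA3, 2.40 in A3 and 1.47 in AC3, a 19.9-fold excess over O3 (interval 17.2 to 23.1). OC3 was the highest library for all 3 genes.

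Slc6a15, a transporter of branched-chain amino acids, had 168 reads in OC3 and none in O3, which puts OC3 at least 56.6-fold higher. Slc24a2, a sodium, calcium and potassium exchanger, was at 8.82 CPM in OC3 and at 0.224 or less in every other pool. Car3, a carbonic anhydrase also found in fat and muscle, was at 55.3 CPM in OA3, 40.4 in OC3, 31.1 in OAC3, 1.499 in O3, 0.572 in A3 and 0.278 in AC3. Of the 4 osteogenic pools, O3 alone was low. Erg, a transcription factor of endothelium and of developing articular cartilage, was at 5.42 CPM in OC3 and at 0.634 or less in the other pools. Endothelial Pecam1 and Cdh5 were at 0.150 CPM or less in all 6 pools.

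Mmp13 encodes the collagenase of hypertrophic cartilage and bone. It was at 122 CPM in OC3, 21.0 in O3, 5.39 in AC3, 3.67 in OAC3, 2.24 in OA3 and 1.067 in A3. OC3 was the highest pool, at 5.79 times O3 (interval 5.29 to 6.34), and clone O2 was higher still at 211 CPM. Tnfrsf11b, which encodes osteoprotegerin, the soluble decoy that blocks osteoclast formation, was at 201 CPM in OC3, 82.3 in OA3, 49.7 in OAC3, 49.5 in AC3, 30.9 in A3 and 29.7 in O3. O2, at 90.2 CPM, was below OC3.

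Of 19 adipocyte genes compared, none was past 4-fold in OC3. The median was log2 -0.61 and 17 had a lower level than in O3, but 4 were below the O range, a share close to the 22.5% of all genes. Pparg was at 30.8 CPM in AC3, 28.2 in A3, 26.4 in OAC3, 15.9 in OA3, 7.53 in O3 and 3.52 in OC3. The 4 pools with fat potency were all above both pools without it, and OC3 was the lowest of the 6. Cxcl12, the main chemokine that retains blood stem cells near stroma, had the same lowest pool: 3668 CPM in AC3, 3062 in OAC3, 2410 in A3, 1642 in OA3, 645 in O3 and 290.5 in OC3.

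**Figure D2:**
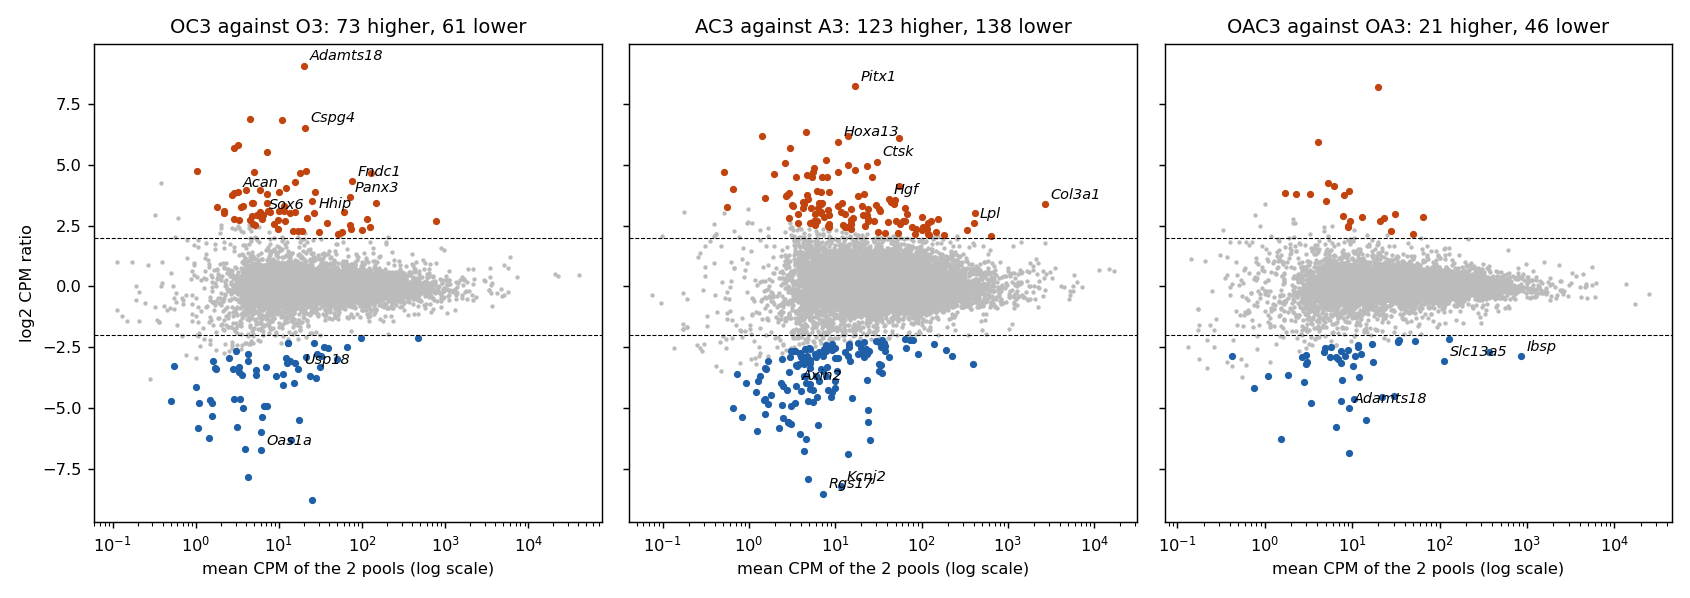
Log2 ratio of CPM against mean CPM (log axis) for every gene compared, in 3 panels for OC3 over O3, AC3 over A3 and OAC3 over OA3, with dashed lines at 4-fold. Orange points (73, 123 and 21 genes) are called higher and blue points (61, 138 and 46 genes) lower. AC3 and A3 have the widest cloud.

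Antiviral genes that type I interferon switches on made up the largest listed group below O3. Of 27 interferon genes compared, 26 were lower in OC3 and 11 were lower past 4-fold (background 0.529%), and none was higher past 4-fold. The median of the list was log2 -1.97. Summed over the list, OC3 had 298 CPM against 597 in OA3, 916 in O3, 994 in OAC3, 1610 in A3 and 1749 in AC3. OC3 was the lowest pool and AC3 the highest.

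Oas1a makes the oligoadenylate that activates antiviral RNase L. It was at 26.7 CPM in A3, 20.7 in AC3, 12.1 in O3, 5.29 in OA3, 4.66 in OAC3 and 0.114 in OC3, which had 3 reads. OC3 was 106-fold lower than O3 (interval 36.02 to 518). Its relatives Oas2 and Oas3 were also at 3 reads in OC3, 25.4-fold and 54.1-fold below O3, although reads of so similar a family may have been split between its members in the counting. Irf7, the transcription factor that amplifies the interferon response, was at 82.6 CPM in A3, 69.8 in AC3, 51.2 in O3, 39.1 in OAC3, 18.6 in OA3 and 3.82 in OC3.

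Isg15, a ubiquitin-like protein, was at 115 CPM in A3, 69.7 in AC3, 58.0 in OAC3, 55.9 in O3, 34.2 in OA3 and 7.65 in OC3. Ifit1, which binds uncapped viral RNA, was at 106 CPM in AC3, 89.0 in A3, 46.3 in OAC3, 44.4 in O3, 26.4 in OA3 and 8.94 in OC3. Among the pools, OC3 was the lowest for each of these genes by a wide margin. Clone O2 was as low as OC3: it was at 0.162 CPM of Oas1a, 2.19 of Irf7, 5.07 of Isg15 and 3.49 of Ifit1. For Ifit1 clone O1 was low as well, at 4.07 CPM, and 7 of the 27 genes were below the O range in OC3, against 22.5% of all genes.

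The 120 bases before the annotated starts of 3 of these genes are shown because they carry the motif that interferon-activated factors recognise. The sequences are RefSeq's, on GRCm38.p6, a build other than the one used for counting, and each is on its gene's own strand. Capitals mark matches to GAAANNGAAA on either strand, overlapping matches joined.
Oas1a: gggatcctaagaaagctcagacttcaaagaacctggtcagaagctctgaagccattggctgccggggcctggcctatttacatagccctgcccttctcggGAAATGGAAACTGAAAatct
Ifit1: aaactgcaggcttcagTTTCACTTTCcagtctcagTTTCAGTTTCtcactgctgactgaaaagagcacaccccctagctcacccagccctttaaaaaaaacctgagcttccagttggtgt
Isg15: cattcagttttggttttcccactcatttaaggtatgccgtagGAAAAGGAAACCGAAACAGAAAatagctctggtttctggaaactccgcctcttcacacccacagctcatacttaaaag

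The Oas1a stretch lies at chr5:120907526-120907645 on the minus strand, the Ifit1 stretch at chr19:34640769-34640888 on the plus strand and the Isg15 stretch at chr4:156200819-156200938 on the minus strand. All 3 lie upstream of the first exon. In windows of 300 bases, from 250 before to 50 after the start, 3.44% of 32851 mouse promoters held the motif, and 3.99% of 27025 genes had it in at least 1 promoter. It was present in 12 of the 22 interferon genes that had a promoter in the table, in 6 of the 9 that were lower in OC3 past 4-fold and in 6 of the other 13. A match of letters is a description and not a measured binding site.

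Other genes low in OC3 were scattered. Xdh, the xanthine dehydrogenase gene, was at 128 CPM in AC3, 124 in A3, 80.5 in OA3, 60.95 in OAC3, 58.8 in O3 and 10.6 in OC3. OC3 was the lowest of all 14 libraries, 5.54-fold below O3 (interval 4.88 to 6.32). Slco2a1, a prostaglandin transporter, was at 46.9 CPM in A3, 17.2 in O3, 3.40 in OA3, 2.17 in OAC3, 1.36 in OC3 and 0.991 in AC3, so that both OC3 and AC3 were far below their unipotent pool. Krt19, an epithelial keratin, was at 105 CPM in A3, 104 in OA3, 88.2 in O3, 41.98 in OAC3, 23.3 in AC3 and 11.1 in OC3, and clones O1 and O2 were lower still. The Krt19 call in AC3 was lost with the GC trend subtracted. Of 11 chemokine and inflammatory genes, Cxcl14, Cxcl1 and Ccl5 were lower in OC3 past 4-fold (0.529% of all genes). The list median was log2 -1.81, and 9 of the 11 were lower. Only 2 of the 11 were below the O range, against 22.5% of all genes. Summed over the list, clone O2 was at 81.4 CPM, OC3 at 130.7, O3 at 263.9 and clone O1 at 937.2.

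The height of O3 entered some of these ratios. Arhgap36, whose product enhances Gli activity, was at 50.02 CPM in O3, 10.1 in OAC3, 1.26 in A3, 0.537 in OA3, 0.114 in OC3 and 0.0396 in AC3. O3 was the highest of the 14 libraries, and OC3 stood 440-fold below it. Plac8, a small cysteine-rich protein, was at 27.6 CPM in AC3, 7.76 in O3, 0.877 in A3, 0.851 in OA3 and 0.0757 in OC3, with no read in OAC3, so that OC3 was low beside all pools but OAC3.

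AC3 differed from A3 more widely. Here 123 genes were higher in AC3 past 4-fold (1.07% of those compared) and 138 lower (1.2%). Genes higher in AC3 included lipoprotein lipase, marrow niche factors, several matrix proteins and secreted growth factors. Targets of Wnt and p53 signalling were among the lower ones. Of the 123 higher genes, 120 were above the range of A1, A2 and A3, and of the 138 lower genes, 93 were below it. Here too, pools were above clones past 4-fold more often than below.

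Lpl, lipoprotein lipase, releases fatty acids from circulating lipoproteins. It was at 692 CPM in AC3, 136 in OAC3, 114 in A3, 56.0 in OA3, 11.3 in O3 and 3.67 in OC3. AC3 stood 6.06-fold above A3 (interval 5.83 to 6.30) from 17467 and 2997 reads, and above clones A1 at 196 CPM and A2 at 246. Every pool with fat potency was above both pools without it. After subtraction of the GC trend the difference was log2 2.21 in place of 2.60.

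Of 19 adipocyte genes compared, Lpl alone was past 4-fold in AC3 (1.07% of all genes) and the median was log2 -0.09, or 0.17 with the GC trend subtracted. Pparg differed from A3 by log2 0.13 and Cebpa by 0.79. Fabp4, a fatty acid carrier, differed by log2 0.05, or -0.41 with the GC trend subtracted. Plin4, a lipid droplet coat protein, was at 309 CPM in AC3 and 354 in A3.

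Vcam1, the adhesion molecule of marrow stroma, was at 210.6 CPM in AC3, 92.7 in A3, 58.3 in O3, 53.8 in OAC3, 53.5 in OC3 and 43.2 in OA3. AC3 was the highest pool and exceeded A3 by 2.27-fold (interval 2.17 to 2.39), short of 4-fold. Clones A1 and A2 were at 83.6 and 73.0 CPM. After subtraction of the GC trend the difference was log2 0.54 in place of 1.18.

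Most of the marrow niche list was higher in AC3 than in A3. Summed over the list, AC3 was at 5311 CPM and A3 at 3708, but clones A1 and A2 were at 5864 and 6499. Of 14 genes compared, 11 were higher than in A3, 10 were above the A range (34.1% of all genes) and 2 were past 4-fold (1.07%), with a median of log2 0.81. Kitl, the membrane ligand that keeps blood stem cells alive, was at 179 CPM in AC3, 67.4 in O3, 58.4 in OA3, 51.3 in OC3, 48.6 in OAC3 and 24.97 in A3. AC3 was the highest and A3 the lowest of the pools, a ratio of 7.15 (interval 6.59 to 7.78). Angpt1, the Tie2 ligand of the niche, was at 118 CPM in AC3, 57.1 in OAC3, 37.1 in OA3, 26.0 in OC3, 12.5 in A3 and 11.4 in O3, a ratio to A3 of 9.43 (interval 8.41 to 10.6). Both differences shrank with the GC trend subtracted, from log2 2.84 to 2.14 for Kitl and from 3.24 to 2.54 for Angpt1.

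Most members short of 4-fold were also higher in AC3. Ebf1, a transcription factor of marrow stroma, was at 196 CPM in AC3 and 68.1 in A3, and Jag1, a Notch ligand, at 66.2 and 16.7 CPM. Cxcl12 was at 3668 against 2410 CPM. Nes, which encodes the intermediate filament nestin, was lower, at 50.3 against 117 CPM, as were Csf1 and Grem1. Pdgfra, a receptor that marks mesenchymal progenitors, was at 241 CPM in AC3, 69.0 in OAC3, 58.8 in A3, 48.7 in OA3, 41.0 in OC3 and 36.2 in O3. Of 17 stromal surface genes compared, 1 was past 4-fold higher in AC3 (1.07% of all genes) and 1 lower (1.2%). The higher one was Eng, a TGF-beta co-receptor (51.0 against 2.25 CPM). The lower one was Alcam, an adhesion molecule (10.3 against 65.0 CPM). The median of that list was log2 0.11 in AC3 and 0.05 in OC3. There 1 gene was past 4-fold higher in OC3 (0.633% of all genes), Cd200, an inhibitory surface protein (20.5 against 2.40 CPM).

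Cartilage genes did not separate AC3 from A3. Among the 16 compared, 1 was past 4-fold higher (1.07% of all genes). It was Comp, a matrix protein of cartilage and tendon, at 11.97 CPM in AC3 and 1.11 in A3 (ratio 10.8, interval 7.39 to 16.5). The median was log2 -0.03, or 0.13 with the GC trend subtracted. Comp was at 8.96 to 11.6 CPM in O3, OA3 and OAC3 and at 6.44 in OC3, so A3 was the low pool. Acan and Sox6, which were high in OC3, had at most 1 read each in A3 and in AC3.

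**Figure D3:**
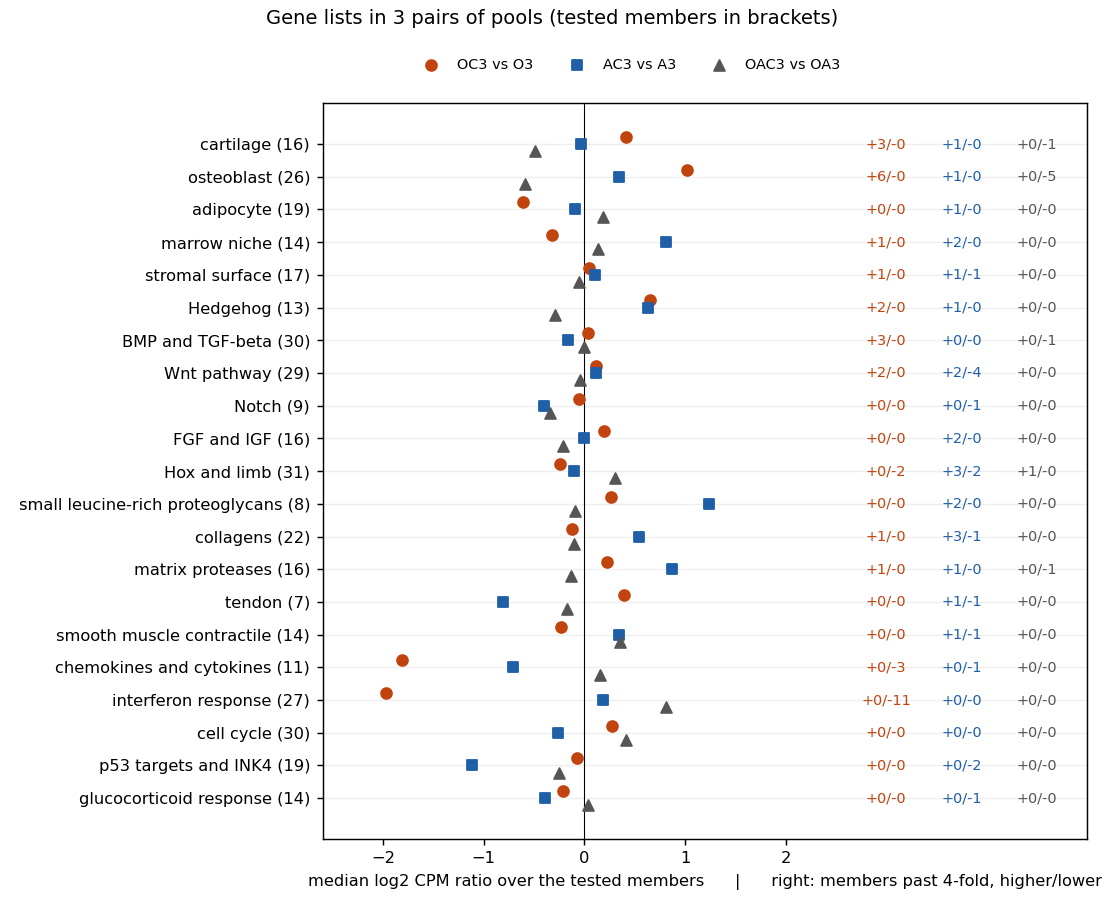
Median log2 ratio over the compared genes of each of 21 gene lists, for OC3 over O3, AC3 over A3 and OAC3 over OA3, with the numbers of genes past 4-fold higher and lower at the right. The osteoblast, cartilage, Hedgehog and interferon medians, among others, lie on opposite sides of 0 in OC3 over O3 and OAC3 over OA3. The Hedgehog list is above 0 in both OC3 over O3 and AC3 over A3.

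The Hedgehog list had a similar median in AC3 over A3 as in OC3 over O3, log2 0.63, with 11 of the 12 genes that gave a ratio higher and 8 above the A range (34.1% of all genes). The leading genes were others. Gli1 was at 15.4 CPM in OA3, 14.3 in OC3, 12.1 in AC3, 7.34 in OAC3, 4.53 in O3 and 1.45 in A3, and was the 1 gene past 4-fold in AC3 (ratio 8.37, interval 5.96 to 12.1). A3 was the lowest pool. Boc, a co-receptor of the ligands, was at 79.6 CPM in OC3, 48.8 in AC3, 39.0 in O3, 30.6 in OA3, 14.4 in OAC3 and 12.01 in A3. Gli2 was at 85.5 CPM in AC3 and 33.3 in A3. Hhip and Ihh, which led in OC3, were below 0.4 CPM in both AC3 and A3.

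The largest ratio among the genes named as higher in AC3 was that of Pitx1, a homeobox factor of the hindlimb. It was at 34.2 CPM in AC3, 31.3 in OAC3, 26.7 in OC3, 24.5 in O3 and 15.7 in OA3, and had no read in A3 against 862 in AC3, which puts AC3 at least 299-fold higher. Clones A1 and A2 were at 0.0822 and 0.0405 CPM. A3 and its clones were thus the libraries that stood apart, and AC3 was at the level of the rest.

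Limb patterning genes of the Hox clusters also differed. Hoxa13, the factor of the most distal limb, was at 21.0 CPM in AC3, 6.81 in OA3, 4.46 in OAC3, 2.76 in OC3, 1.61 in O3 and 0.343 in A3, a ratio of 61.2 (interval 32.0 to 135). Hoxa11, which patterns the middle limb segment, was at 45.1 CPM in AC3, 33.5 in OA3, 14.1 in OAC3, 4.62 in OC3, 1.91 in O3 and 1.45 in A3, and clone A2 was at 30.1 CPM. Its antisense transcript gave a similar ratio, but the 2 overlap and the strand setting of the counting is not given in the sources used here, so their reads cannot be told apart. Of 31 Hox and limb genes compared, 3 were past 4-fold higher in AC3 (1.07% of all genes) and 2 lower (1.2%), with a median of log2 -0.10. In OC3, 2 were lower than in O3 past 4-fold (0.529% of all genes), Hoxb8 and Hoxb9, with a median of log2 -0.24. Hoxb9 was at 24.6 CPM in A3, 21.2 in O3, 3.41 in AC3, 2.76 in OC3, 1.75 in OA3 and 1.38 in OAC3, so that both unipotent pools were high and the other 4 low.

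Most collagen genes were higher in AC3 than in A3, but A3 was the low pool for the list. Summed over it, A3 was at 34709 CPM, AC3 at 60076 and the 4 other pools at 61000 to 101801. Of 22 collagen genes compared, 18 were higher than in A3, 15 were above the A range (34.1% of all genes), 3 were past 4-fold (1.07%) and 1 was lower past 4-fold (1.2%), with a median of log2 0.54. Col3a1, the chain of type III collagen, was at 4845 CPM in AC3, 4379 in OC3, 2581 in O3, 2152 in OA3, 1481 in OAC3 and 464 in A3. A3 was the low pool. Col14a1, a collagen that binds fibril surfaces, was at 62.5 CPM in AC3, 13.6 in A3 and 1.61 or less in the 4 other pools, and so was high in AC3 itself. Col5a3 was the third. Col4a6, a basement membrane chain, was the lower one, at 0.832 against 12.3 CPM. In OC3 the collagen median was log2 -0.12, or 0.10 with the GC trend subtracted, with Col15a1 alone past 4-fold (64.2 against 10.49 CPM).

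Among 8 small leucine-rich proteoglycans, Dcn and Prelp were past 4-fold higher in AC3 (1.07% of all genes). The median was log2 1.24, or 0.61 with the GC trend subtracted. Dcn, decorin, was at 5.38 CPM in OC3, 3.77 in AC3, 2.87 in OA3, 1.38 in OAC3, 0.974 in O3 and 0.152 in A3. It was low in all of them, and its log2 ratio in AC3 over A3 was 4.63, or 3.82 with the GC trend subtracted. Among 16 matrix proteases and inhibitors, Adamts5, the main aggrecan-cleaving protease, was at 299 CPM in AC3, 68.4 in A3, 59.9 in OC3, 51.8 in OAC3, 34.1 in O3 and 30.5 in OA3. AC3 was the highest of all 14 libraries, 4.37-fold above A3 (interval 4.15 to 4.61), but the call was lost with the GC trend subtracted, which took log2 2.13 to 1.76. The list median was log2 0.87.

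Ctsk, a collagen-degrading cathepsin best known from osteoclasts and also made by skeletal progenitors, was at 59.6 CPM in AC3, 18.0 in O3, 5.42 in OA3, 4.35 in OC3, 1.72 in A3 and 0.631 in OAC3. Fap, a surface protease of activated fibroblasts, was at 5.95 CPM in AC3 and at 0.719 or less in the other pools, with a log2 ratio to A3 of 5.70, or 5.03 with the GC trend subtracted.

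Among the genes for which AC3 stood above all other libraries were 3 that encode secreted proteins, picked after their values were seen. Hgf, hepatocyte growth factor, was at 76.7 CPM in AC3, 8.15 in OA3, 6.41 in A3, 1.26 in OAC3, 1.10 in OC3 and 0.787 in O3. The ratio to A3 was 11.97 (interval 10.2 to 14.1), or log2 3.58, which came to 2.92 with the GC trend subtracted. Igf1 was at 26.7 CPM in AC3, 5.49 in OC3, 4.003 in A3, 3.56 in O3, 3.31 in OAC3 and 2.06 in OA3, a ratio of 6.67 that came down from log2 2.74 to 1.96 with the GC trend subtracted and so lost its call. Tfpi, which inhibits the start of coagulation, was at 88.2 CPM in AC3, 7.74 in A3, 3.45 in OC3 and 0.600 or less in O3, OA3 and OAC3, and clone A1 was at 44.3 CPM. Its log2 ratio was 3.51, or 2.84 with the GC trend subtracted. AC3 was the highest of the 14 libraries for each of the 3.

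Other large ratios over A3 included Slc26a7, an anion transporter, at 27.7 CPM in AC3, 18.7 in OC3, 7.61 in O3, 3.23 in OA3, 1.22 in OAC3 and 0.381 in A3, log2 6.18, or 5.41 with the GC trend subtracted. Esm1, a proteoglycan secreted mainly by endothelium, was at 9.20 CPM in AC3 with no read in A3, at least 80.4-fold higher, but clone OAC2 was at 151 CPM. Abcg1, a cholesterol exporter, was at 15.3 CPM in AC3 and 0.419 in A3. S100b, a calcium-binding protein of Schwann cells and chondrocytes, was at 8.84 CPM in AC3 and 0.724 in A3, with 4.58 to 7.39 in the 4 other pools. A3 was the low pool for S100b.

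Wnt pathway genes split in AC3. Of 29 compared, 4 were lower than in A3 past 4-fold (background 1.2%) and 2 were higher (background 1.07%). The median was log2 0.12, or 0.42 with the GC trend subtracted. Axin2, a feedback inhibitor that Wnt signalling itself induces, was at 20.4 CPM in O3, 19.9 in OC3, 19.7 in OA3, 10.0 in OAC3, 6.67 in A3 and 0.396 in AC3. AC3, with 10 reads, was the lowest of all 14 libraries and 16.8-fold below A3 (interval 8.94 to 35.7). Lef1, a nuclear effector of the pathway and also a target, was at 20.1 CPM in OC3, 14.7 in O3, 4.50 in OAC3, 4.35 in A3, 4.30 in OA3 and 0.555 in AC3, 7.83-fold below A3 (interval 4.48 to 14.8).

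Tcf7 was at 93.6 CPM in OC3, 72.8 in OA3, 20.04 in OAC3, 20.01 in O3, 7.59 in A3 and 0.912 in AC3. It was thus highest in OC3 and lowest in AC3, past 4-fold in opposite directions in the 2 pairs. Wnt10b, a ligand that favours bone over fat, was at 122 CPM in OA3, 85.9 in O3, 82.0 in OAC3, 69.4 in OC3, 35.95 in A3 and 7.45 in AC3. For Wnt10b too, AC3 was the lowest of the 14 libraries, at 4.82-fold below A3 (interval 4.12 to 5.67), although the call was lost with the GC trend subtracted (log2 -2.27 and -2.10). Rnf43, a membrane ubiquitin ligase that Wnt signalling induces, was at 24.0 CPM in OC3, 21.99 in O3, 17.6 in OA3, 10.52 in A3, 9.78 in OAC3 and 0.555 in AC3, but clone A2 was at 0.162 CPM. Wnt7b, another ligand, was at 0.159 CPM in AC3 and 4.69 in A3. The 2 higher Wnt genes were Rspo3, at 11.3 against 1.22 CPM, and Fzd4, a receptor, at 14.8 against 1.68 CPM.

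Genes under p53, and the cell cycle inhibitors around it, were lower in AC3. Of 19 compared, 17 were lower than in A3, 14 were below the A range (30.8% of all genes) and 2 were past 4-fold (1.2%), with a median of log2 -1.12. Btg2, an antiproliferative target of p53, was at 236 CPM in A3, 171 in O3, 165 in OC3, 112 in OA3, 76.8 in OAC3 and 46.3 in AC3. Cdkn1a, the p21 inhibitor, was at 897 CPM in A3, 859 in O3, 752 in OC3, 657 in OA3, 459 in OAC3 and 229 in AC3. AC3 was the lowest pool and OAC3 the next for both. Perp, a p53 target and junction protein, was at 10.8 CPM in A3, 10.6 in OC3, 6.97 in O3, 0.941 in OA3, 0.552 in OAC3 and 0.396 in AC3. In OC3 over O3 the same list had a median of log2 -0.07, with 14 of 19 lower and no gene past 4-fold. In OAC3 over OA3 the median was log2 -0.25, with 17 of 19 lower and none past 4-fold.

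Some genes all but vanished from AC3. Rgs17, a regulator of G protein signalling, was at 30.5 CPM in OC3, 26.0 in O3, 14.4 in A3, 9.45 in OA3, 1.97 in OAC3 and 0.0396 in AC3, where it had 1 read, 363-fold below A3 (interval 64.7 to 14359), log2 -8.50, or -9.33 with the GC trend subtracted. Kcnj2, an inward rectifier potassium channel, was at 35.0 CPM in O3, 23.2 in A3, 21.5 in OA3, 17.9 in OC3, 14.99 in OAC3 and 0.0793 in AC3. AC3 was the lowest of the 14 libraries for both. Msln, a surface glycoprotein of mesothelium, was at 34.1 CPM in O3, 7.89 in A3, 4.52 in OA3, 1.54 in OAC3 and 0.757 in OC3, with no read in AC3, at least 66.4-fold below A3.

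Stra6, a receptor that takes up retinol, was at 6.93 CPM in O3, 6.14 in OA3, 3.33 in OC3, 2.44 in A3, 1.93 in OAC3 and 0.0396 in AC3. Foxq1, a forkhead factor and Wnt target, was at 9.35 CPM in OC3, 5.21 in O3, 3.76 in OA3, 2.01 in OAC3, 1.64 in A3 and 0.0396 in AC3. Each had 1 read in AC3. Cadm1, an adhesion molecule, had no read in AC3 and was at 54.4 CPM in OAC3, 27.2 in OC3, 25.3 in O3, 6.90 in OA3 and 5.604 in A3, but clone A1 had none either. Hoxc11 was at 0.119 CPM in AC3 and at 2.94 to 13.3 in the 5 other pools. Mef2c, a transcription factor of chondrocyte hypertrophy and bone, was at 122 CPM in OC3, 64.7 in OA3, 31.5 in OAC3, 24.1 in O3, 15.9 in A3 and 0.832 in AC3, and so was past 4-fold higher in OC3 and past 4-fold lower in AC3. With the GC trend subtracted the OC3 call (log2 2.35) was lost, and AC3 over A3 went from log2 -4.25 to -4.86.

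The pair OAC3 and OA3 gave the reference for adding cartilage to 2 other lineages. There 21 genes were higher in OAC3 past 4-fold (0.182%) and 46 lower (0.399%). No gene was past 4-fold higher in all 3 pairs, and none was lower in all 3. Each pair called so few genes (0.182% to 1.2% per direction) that these counts of 0 say little. OC3 and AC3 had 5 higher genes in common: Adamts18, Hpgd, Ifi202b, Itga4 and Rspo3. These were 6.85% of the 73, against 1.07% of all genes higher in AC3. They were 4.07% of the 123, against 0.633% of all genes higher in OC3. Ifi202b and Itga4 lost their call in AC3 with the GC trend subtracted. OC3 and AC3 had 12 lower genes in common, among them Slco2a1, Krt19, Hoxb9, Msln, Gpnmb and Nr1h4. These were 19.7% of the 61, against 1.2% of all genes lower in AC3. They were 8.70% of the 138, against 0.529% of all genes lower in OC3. Gpnmb, a membrane glycoprotein of bone and macrophages, was at 719.8 CPM in A3, 319 in OAC3, 272 in OA3, 160.1 in O3, 78.3 in AC3 and 36.6 in OC3.

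Of the shared higher genes, Rspo3 had the most even values, at 11.3 CPM in AC3, 9.66 in OC3, 1.52 in OA3, 1.22 in A3, 0.829 in OAC3 and 0.375 in O3. OC3 and AC3 were the 2 high pools, at 25.8 times O3 (interval 13.8 to 54.4) and 9.29 times A3 (interval 6.44 to 13.8). OAC3, the third pool with cartilage potency, was low. Itga4, an integrin chain that binds Vcam1, was at 11.0 CPM in OC3 against 0.712 in O3 and at 2.81 in AC3 against 0.229 in A3.

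OC3 and OAC3 more often went opposite ways. Of the 73 genes higher in OC3 than in O3, 19 were lower in OAC3 than in OA3 past 4-fold. That is 26.0% of the 73, against 0.399% of all genes, and 41.3% of the 46, against 0.633% of all genes. In both pairs 1 gene was higher, Thbd, the thrombin receptor thrombomodulin (1.37% of the 73, against 0.182% of all genes). Slc13a5, Ibsp, Phospho1, Ifitm5, Dlx3, Adamts18, Ptprz1 and Bmp3 were all among the 19, and Phospho1 lost its call in OAC3 with the GC trend subtracted. For Ifitm5 the log2 ratio was 3.43 in OC3 over O3 and -4.71 in OAC3 over OA3, and for Adamts18 it was 9.06 and -5.01. Slc8a3, a sodium and calcium exchanger, was at 41.6 CPM in OA3, 34.3 in OC3, 1.77 in OAC3 and 1.35 in O3, which shows the shape of the group: OC3 and OA3 high, O3 and OAC3 low. Over all genes OC3 was not clearly nearer to OA3 or to O3, as counts and medians went opposite ways. It differed past 4-fold from OA3 at 125 genes and from O3 at 134, and the median absolute log2 ratio was 0.271 against OA3 and 0.235 against O3.

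Membership in the gene lists was not set by that choice, but the lists were chosen with earlier results of these data known. Osteoblast genes had a median of log2 1.02 in OC3 over O3 (23 of 26 higher) and -0.59 in OAC3 over OA3 (22 of 26 lower). In OAC3, 5 of them were lower past 4-fold (0.399% of all genes), and all 5 are among the 19 genes above. Hedgehog genes had 0.65 and -0.29. Cartilage genes had 0.41 and -0.49, with 13 of 16 lower in OAC3. Interferon genes had -1.97 and 0.81, with 25 of 27 higher in OAC3 and none past 4-fold. Not every list went opposite ways: collagen genes had -0.12 and -0.10. In AC3 over A3 the osteoblast median was 0.34, with Phex, an endopeptidase of mineralising bone, the 1 gene past 4-fold (5.03 against 0.381 CPM, log2 3.72, or 3.04 with the GC trend subtracted), and the interferon median was 0.19 with none past 4-fold in either direction.

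Over the 6 pools, OC3 was past 4-fold above each of the 5 others at 17 genes (0.147%) and below each at 7 (0.0607%). AC3 was above each at 24 (0.208%) and below each at 41 (0.356%). The 4 other pools had 1 to 7 such high genes and at most 11 low ones, the highest of these numbers being those of A3. OC3 was the highest of all 14 libraries for 14 of its 17 genes, among them Acan, Hhip, Sox6, Cspg4, Cthrc1, Fndc1, Erg and Epha3. Epha3, an ephrin receptor, was at 109 CPM in OC3 and 8.20-fold above O3 (interval 7.35 to 9.18). Ptgis, Plekhg1 and Mmp13 were exceeded by a clone.

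AC3 was the highest of all 14 for 20 of its 24 genes, Lpl, Igf1, Hgf, Tfpi, Fap, Col14a1 and Adamts5 among them. It was the lowest of all 14 for 16 of its 41, which included Axin2, Lef1, Tcf7, Wnt10b, Foxq1, Stra6, Kcnj2 and Rgs17. Of the 7 genes lowest in OC3, 4 were lowest of all 14, among them Oas1a, at 0.114 CPM against 0.162 in clone O2, and Xdh. Highest of 14 is the weaker standard, since pools were above clones past 4-fold more often than below.

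**Figure D4:**
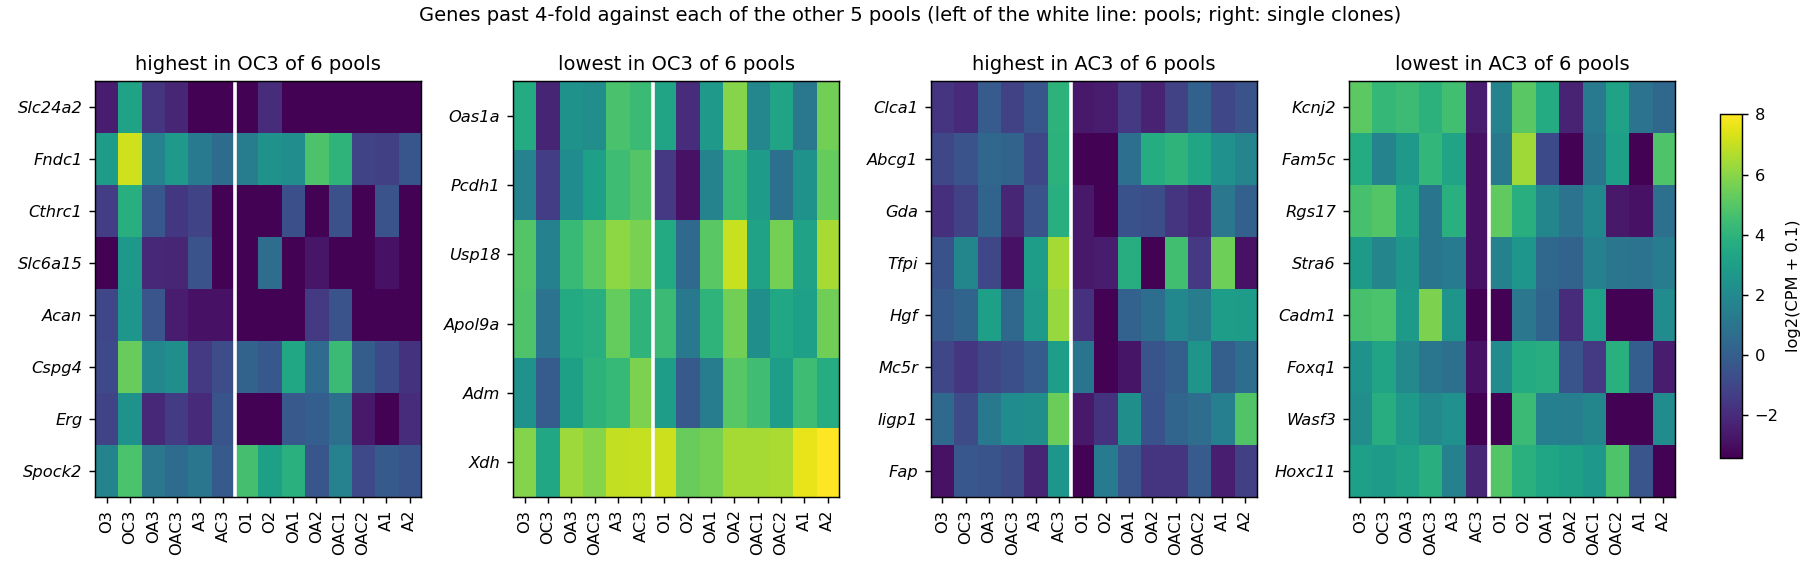
Heat maps of log2(CPM + 0.1) in all 14 libraries, pools left of the white line and single clones right of it, for the genes highest or lowest in OC3 and in AC3 among the 6 pools. The OC3 and AC3 columns stand out among the pools by construction, and several clones, O2 in particular for the genes low in OC3, share their levels.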

How the data were processed

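Poly(A) RNA of 14 mouse stromal libraries was sequenced from a strand-specific NEBNext preparation, per the labels' protocols. The authors deposited whole-number counts of reads per gene, with no normalization (23331 genes). CASAVA 1.8.0, bedtools 2.11 and the mm9 build are named in the submitters' processing notes, while aligner, filters and strand option of the counts were not given in the sources used here. Groups came from the sample titles. Counts were scaled by TMM (edgeR 4.0.16, R 4.3.3) over all 14 libraries, using genes with at least 1 CPM in 3. Genes reaching 5 CPM in any pool were compared by the CPM ratio and its exact Clopper-Pearson interval (95%, scipy 1.17.1), and called where the nearer bound passed 4-fold. A count of 0 was set to 3. No group test was run, as each potency had 1 pool. For GC correction a lowess trend of the log2 ratio on GC content was subtracted (statsmodels 0.14.6, GC known for 98.4% of the genes compared). The calls were tested first on simulated counts with counting error only, which hold no spread between clones or pools. Named genes were the 12 with the highest and the 12 with the lowest ratio per pair among genes called and outside the unipotent range, up to 8 per extreme pattern, and members of the lists; 196 genes share a symbol with another row and were not named. The other genes named were chosen after their values were seen. The pools, markers and 27 gene lists were chosen with earlier results of these data known. Alternatives were total-count and DESeq2 (1.42.0) scaling, GC correction, other level minimums, other call rules and leaving out unipotent clones.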

Additional observations from a re-analysis of the deposited data

Results flagged for a closer look

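The genes that were past 4-fold in opposite directions in OC3 over O3 and in AC3 over A3 were singled out. There were 8. Higher in OC3 and lower in AC3 were Tcf7, at log2 2.23 and -3.06 (5.28 apart), Mef2c, at 2.35 and -4.25 (6.60 apart), Galnt3, a glycosyltransferase, at 2.80 and -4.44 (7.23 apart), and Dmd, the dystrophin gene, at 2.74 and -3.98 (6.72 apart). Lower in OC3 and higher in AC3 were Plac8, at log2 -6.68 and 4.98 (a difference of -11.65), Cygb, a globin, at -3.06 and 3.72 (-6.79), and the interferon-induced paralogs Ifi27l2a, at -4.93 and 2.46 (-7.39), and Ifi27l2b, at -4.99 and 2.52 (-7.51), which the counting may not have kept apart. The OC3 calls of Mef2c and Cygb were lost with the GC trend subtracted. Each difference rests on 1 library on either side, and the difference between the pairs was not tested.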

How the results depend on the processing

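No paired analysis was possible because each potency has 1 pool and no result comes from a test. Scaling by total counts or by DESeq2's size factors and subtracting the GC trend kept every count of genes past 4-fold within 1.5 times its reported value. With them OC3 over O3 gave 68, 78 and 71 higher genes, and AC3 over A3 gave 112, 131 and 121. No gene called past 4-fold and named by the rule changed sign with any of them. Values near 0 did: with the GC trend subtracted, Hhip in AC3 over A3 went from log2 0.42 to -0.15 and Cebpa in OC3 over O3 from -0.13 to 0.11, and Fabp4 in AC3 over A3 was 0.05, -0.41 with the GC trend subtracted and -0.02 with total counts. The Notch median in OC3 over O3 went from -0.05 to 0.14, and the cartilage median in AC3 over A3 was -0.03, 0.13 with the GC trend subtracted and 0.03 with DESeq2's size factors. A minimum of 1 CPM gave 113 higher genes in OC3 over O3, 91 of them above the O range, and 32 higher in OAC3 over OA3. A minimum of 20 CPM gave 37 higher and 37 lower in OC3 over O3 (29 and 14 outside the O range), 74 and 61 in AC3 over A3 (71 and 41 outside the A range), and 10 and 27 in OAC3 over OA3, with 8 genes highest in OC3 and 13 highest and 23 lowest in AC3. With the ratio itself past 4-fold, 97 genes were lower in OC3 over O3, 186 higher and 218 lower in AC3 over A3 (144 of the lower ones below the A range), and 38 higher and 83 lower in OAC3 over OA3. Under that rule 28 genes were lowest in OC3, 39 were highest and 75 lowest in AC3, and 1 gene was higher (Dock10) and 3 lower (Hoxb13, Klhdc7a and Pik3r5) in all 3 pairs. With the bound past 8-fold there were 22 higher and 28 lower genes in OC3 over O3 (20 and 10 outside the range), 39 and 54 in AC3 over A3 (38 and 29 outside), and 6 and 12 in OAC3 over OA3, with 3 highest and 1 lowest in OC3 and 7 highest and 17 lowest in AC3. Leaving out O1 or O2 changed the genes below the O range in OC3 from 23 to 25 or 49 and those above it from 59 to between 61 and 71. Without A1 or A2, 121 genes were above the A range in AC3 and 110 to 113 below. The count without O2 was the 1 that moved by over 1.5 times. Levels under about 0.1 CPM were below what the depth of these pools resolves.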

Other observations

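Cell cycle genes had none of 30 past 4-fold in any pair, with medians of log2 0.28 in OC3 over O3 (28 of 30 higher), -0.26 in AC3 over A3 (20 of 30 lower) and 0.41 in OAC3 over OA3 (29 of 30 higher). Mki67, a proliferation antigen, was at 335 CPM in OAC3, 220.5 in AC3, 154 in OC3, 90.7 in O3, 86.2 in OA3 and 56.1 in A3, so each pool with cartilage potency was above its partner. Smooth muscle contractile genes had medians of log2 -0.23, 0.34 and 0.35 in the same order of pairs. In AC3 over A3, Mylk, the kinase of myosin light chain, was higher (1017 against 245 CPM) and Sncg, gamma-synuclein, lower (0.674 against 8.62 CPM) past 4-fold.

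Notch genes had medians of log2 -0.05 (0.14 with the GC trend subtracted), -0.40 and -0.34, with the ligand Jag2 lower in AC3 past 4-fold (1.19 against 13.2 CPM). FGF and IGF genes had 0.20, -0.00 and -0.21. Igfbp5, an IGF-binding protein, was past 4-fold higher in AC3 (21.8 against 2.02 CPM), and A3 was the lowest of the pools for it. Tendon genes had 0.39, -0.81 and -0.17. In AC3, Comp was higher past 4-fold (log2 3.44) and Egr2 lower (12.2 against 61.1 CPM). The Egr2 call was lost with the GC trend subtracted. Glucocorticoid-responsive genes had -0.21, -0.39 and 0.04, with Dusp1, a phosphatase of MAP kinases, lower in AC3 past 4-fold (28.6 against 132 CPM), a call also lost with that correction. Lif, a cytokine of the chemokine and inflammatory list, was at 1.19 CPM in AC3 and 12.4 in A3.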
